A study of Drosophila sechellia with 6 samples.

Results

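*Osiris* genes encode an insect-specific family of secreted and membrane-bound proteins, and most of the family lies in one tandem cluster whose gene order is kept across insects. In *D. melanogaster* many of them are transcribed together in epithelial cells at the times when these cells lay down cuticle, the chitin-based layer that covers the body and lines the airways. Knockdown in *D. melanogaster* had also linked *Osi6*, *Osi7* and *Osi8* to resistance to octanoic acid (OA), the main toxin of the *Morinda* fruit on which *D. sechellia* feeds. Of these, only *Osi6* is among the named genes described below.

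The genes described here are the 7 entries GM10867, GM10870, GM10875, GM10877, GM10882, GM10883 and GM10884, of 17275 entries in the expression table. The study pairs 6 of them with *D. melanogaster* orthologs, which are *Osi6* (GM10867), *Osi9* (GM10870), *Osi15* (GM10877), *Osi18* (GM10882), *Osi19* (GM10883) and *Osi20* (GM10884). These 6 were chosen because the study called them upregulated by OA, and GM10875 because it is the remaining gene of the interval that the authors' software tested. Their control and OA values therefore chose the members and are given as a description with no test. The 7 are all the tested genes of the interval, so being tested was the threshold of the choice. *Osi9*, at 2.28 FPKM in OA, was the lowest gene inside it, and GM10868, a gene between *Osi6* and *Osi9* left untested with a listed control value of 0 and an OA value of 1.25 FPKM, lay just outside.

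The values come from whole adult females of the *D. sechellia* strain 14021-0428.25, reared on cornmeal medium at 20 degrees. Females aged 0 to 3 days (1 to 4 days in the sample labels) spent 24 hr on control food in one group and on food with 0.7% OA in the other. Each group had 3 libraries of poly(A) RNA, each library from 10 pooled flies of this single strain. The table gives 1 value per gene and group, as FPKM, a count of sequenced fragments divided by transcript length and by the mapped reads of the library, so no value below has an SD, and no difference could be set against the spread between libraries. In pooled whole flies, more cells that transcribe a gene and more RNA per cell cannot be told apart. A value of 0 may also be a failed estimate, so such genes are called listed at 0 and are given no fold.

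Over all protein-coding entries the groups were close. Summed FPKM in OA was 0.988 times that in control, and the median log2 change of the 12151 genes at 1 FPKM or more in a group was 0.06, on the scale of log2 of FPKM + 1. The labelled sex was reflected in the genes that the file names. The yolk protein gene *Yp2* had a control value of 11392 FPKM and an OA value of 15455 FPKM, and the vitelline membrane gene *Vm32E* of the eggshell was at 984 and 718 FPKM, while 5 of the 7 male accessory gland genes matched were listed at 0 in both groups and the control and OA sums of all 7 were 0.0442 and 0.438 FPKM. Of 14 embryonic patterning genes sought, 5 were matched, and their sums were 65.5 FPKM (control) and 48.5 FPKM (OA). *Sry-alpha*, which acts when the early embryo forms cells, went from 21.6 to 1.80 FPKM and *ftz*, a segmentation gene, from 0.669 FPKM to a listed 0. The gap genes *kni* and *hb* had control and OA values of 5.45 and 3.29 FPKM and of 23.8 and 28.7 FPKM, and the maternal gene *bcd* of 14.1 and 14.8 FPKM, so the lower sum came from *Sry-alpha* and 2 of the 5 genes were higher in OA. None of the larval and pupal cuticle symbols or of the housekeeping symbols sought (0 of 14 and 0 of 8) was found among the names in the file. Markers of the cuticle-forming cells in which *Osiris* genes are usually active could therefore not be read from these lists. The part of such cells in the values below was not tested. The study itself reports *Tweedle* cuticle protein genes among those upregulated by OA, of which *TwdlY* is given below.

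All 7 genes were higher in OA. Each of the 6 named *Osiris* genes was listed at 0 in control. *Osi15* was at 9.91 FPKM in OA, the highest of the 7, and *Osi20* was at 9.19 FPKM. *Osi19* followed at 5.02 FPKM. In *D. melanogaster*, *Osi15* and *Osi19* are among the members known from the epidermis and the tracheal tubes. The 4 lower genes lay close together in OA, *Osi6* at 3.03 FPKM, *Osi18* at 3.00 FPKM, GM10875 at 2.86 FPKM and *Osi9* at 2.28 FPKM. The highest value was 4.35 times the lowest. Because the table holds no spread, the order of neighbours as near as *Osi15* and *Osi20* (a ratio of 1.08) or *Osi6* and *Osi18* (a ratio of 1.01) cannot be decided. The largest steps in the order were those from *Osi20* to *Osi19*, 1.83 times, and from *Osi19* to *Osi6*, 1.66 times.

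GM10875 was the only member above 0 in both groups. It lies on scaffold 6 from 2211239 to 2212628 and had a control value of 0.433 FPKM and an OA value of 2.86 FPKM, a ratio of 6.61 and a log2 change of 1.43 with 1 FPKM added to both values. Without the added FPKM the log2 change was 2.72, so the size of this change depends on how a low control value is treated. The file does not pair this entry with a gene name, and none is given to it here.

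Summed over the 7 genes, the control level was 0.433 FPKM and the OA level 35.3 FPKM. *Osi15* made up 28.1% of the OA sum and *Osi20* 26.04%, against 6.46% for *Osi9*. All of these are low levels for a whole fly. Among protein-coding genes above 0 in OA, the *Osi15* value stood at percentile 36.9 and the *Osi9* value at percentile 21.2. 

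**Figure D1:**
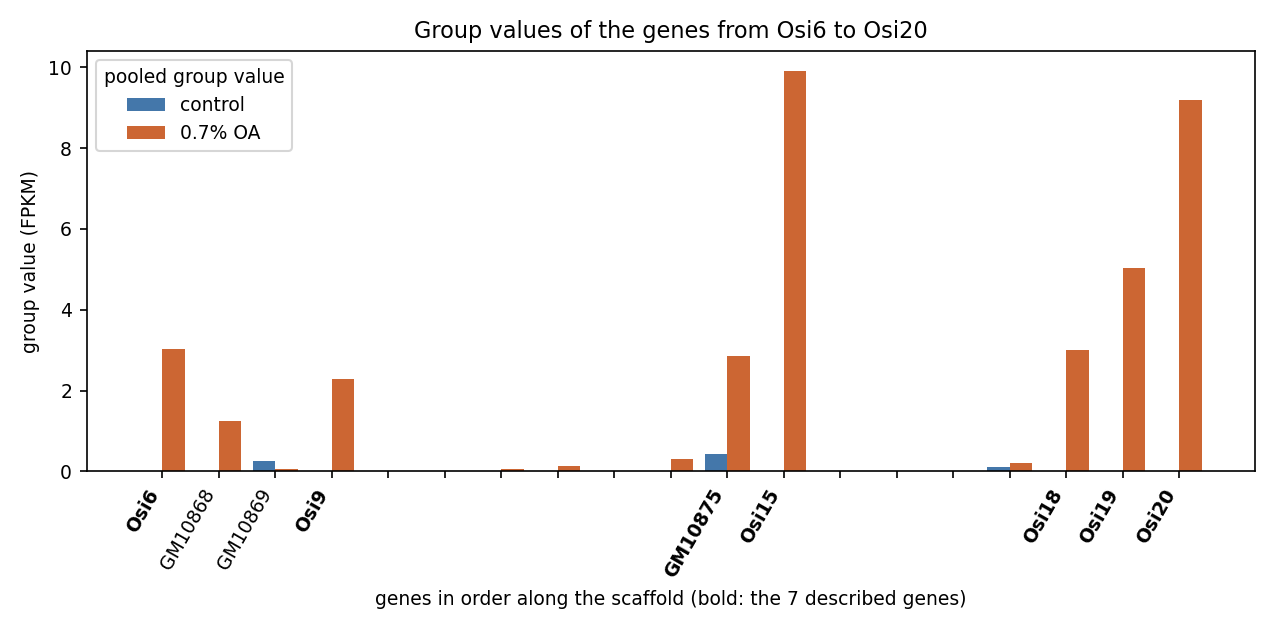
Group values in FPKM (bars from 0, linear axis) of the 19 genes from *Osi6* to *Osi20*, in order along the scaffold, with control in blue and 0.7% OA in orange and the less described genes left unlabelled; each bar is the authors' single value for a group, so there are no error bars. The named *Osiris* genes show OA bars between 2.28 and 9.91 FPKM with no control bar, and GM10875 alone has a control bar among the described genes.

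To set the members against the rest of the table, a gene was counted as past the fold when log2 of (OA FPKM + 1) over (control FPKM + 1) was at least 1. For a gene listed at 0 in control, this means an OA value of at least 1 FPKM. All 7 members were past it in the direction of OA, as were 358 of 16471 protein-coding genes, or 2.17%. The members were picked on this contrast, so the count is not a result about them. In the other direction 306 protein-coding genes, or 1.86%, were past the fold. A listed 0 in control with at least 1 FPKM in OA was found in 161 protein-coding genes, or 0.977%, and the reverse pattern in 76, or 0.461%.

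**Figure D2:**
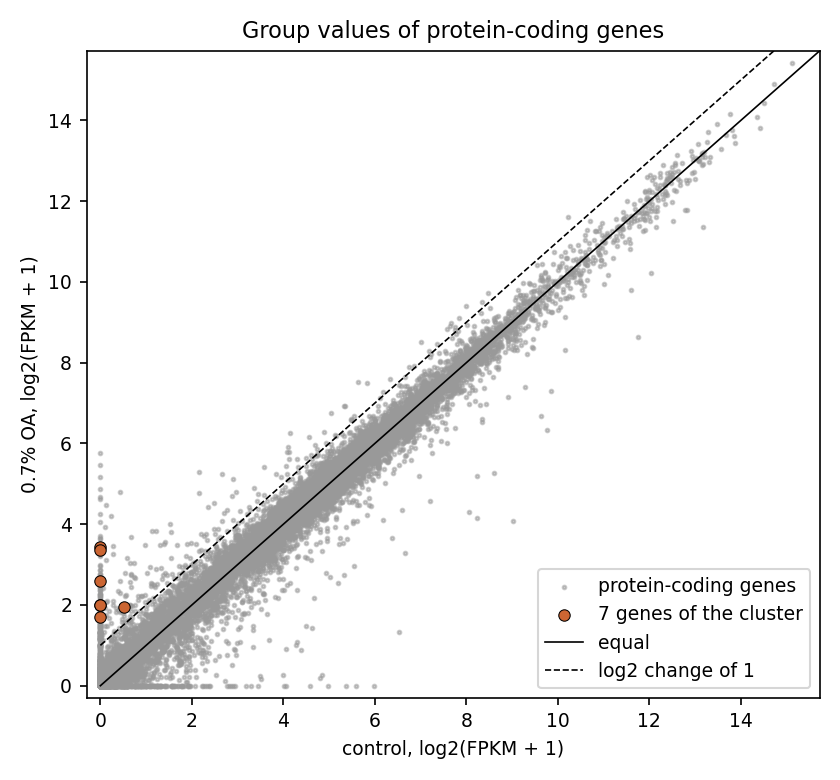
OA against control group values of all 16471 protein-coding genes, each axis in log2 of FPKM + 1, with the 7 genes of the cluster in orange. The solid line marks equal values and the dashed line a log2 change of 1. The 7 genes stand above the dashed line at the left edge, 6 of them at a control value of 0.

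The members lie on scaffold 6 of the Ensembl assembly GCA_000005215.1, within 104175 bases that run from the start of *Osi6* at 2147524 to the end of *Osi20* at 2251698. The table lists 19 genes there, none of which overlaps its neighbour. The members are described below in 3 groups by position. This split is for description only, since the gap inside the first group (23012 bases) is near the gap before the last (26548 bases). *Osi6* (2147524 to 2148987) and *Osi9* (2172000 to 2173228) stand at the first end, 23012 bases apart with 2 genes between them, and summed to 5.31 FPKM in OA. After *Osi9* came a stretch of 38010 bases with 6 genes and no member. GM10875 and *Osi15* (2213968 to 2215193) followed, separated by 1339 bases, and summed to 12.8 FPKM. After another 26548 bases with 4 genes, *Osi18* (2241742 to 2242957), *Osi19* (2245935 to 2247427) and *Osi20* (2250790 to 2251698) followed one another with gaps of 2977 and 3362 bases and no other gene between them. These 3 genes summed to 17.2 FPKM in OA. The sums cover 2, 2 and 3 genes, and the highest single value, that of *Osi15*, lay in the middle group, so they show no order along the interval.

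The other 12 genes of the interval are those that the authors' software left untested, as it does for genes with few reads, so low values are part of how this set came about. Their OA value exceeded the control value in 5 of the 12 and fell short of it in 1, and in the remaining 6 neither group had a value above 0. Over all protein-coding genes 50.2% were higher in OA. A single one of the 12, or 8.33%, was past the fold, beside 2.17% of all protein-coding genes. This was GM10868 (2161124 to 2161991), 12136 bases after *Osi6*, whose 1.25 FPKM in OA is given above. The other 4 that were higher in OA reached between 0.0487 and 0.306 FPKM, values at which a difference cannot be read without the number of reads behind it. The gene that was lower, GM10869 next to *Osi9*, went from 0.266 to 0.0546 FPKM. The members held 94.7% of the summed OA FPKM of the 19 genes, and the other 12 together went from 0.368 to 1.99 FPKM.

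In control the values of the whole interval were at or close to 0. Of its 19 genes, 16 were listed at 0 in control, 6 of them members chosen on this contrast and 10 of them untested genes, and the 19 values summed to 0.801 FPKM. The highest control value among them was the 0.433 FPKM of GM10875. In OA 8 of the 19 genes were at 1 FPKM or more, and the sum was 37.3 FPKM. Past the fold were 8 of 19 genes, of which 7 are the members, and the ends of the interval are set by members, so nothing is read from this share. Listed at 0 in control were 17.6% of all protein-coding genes, and past the fold on the same scaffold outside the interval were 19 of 552, or 3.44%, both given as background alone.

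The 10 genes on each side of the interval show the levels beyond its ends, which were set by the choice of members. On the side of *Osi20* the levels changed within a few genes. The first gene after *Osi20*, 1104 bases away, was listed at 0 in both groups, and the second had 0.711 FPKM (control) and 0.455 FPKM (OA). The third, 3305 bases after *Osi20*, stood at 122 FPKM (control) and 123 FPKM (OA), and the fourth, 4459 bases away, at 343 FPKM (control) and 256 FPKM (OA). Of the 10 genes on this side 7 were at 1 FPKM or more in control, and 0 were past the fold. Log2 changes on this side lay between -0.42 and 0.78.

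On the side of *Osi6* the low levels went on beyond the interval. The 3 nearest genes had a listed control value of 0, and none exceeded 0.0887 FPKM in OA. Of the 10 genes on this side 7 were listed at 0 in control, 6 had the higher value in OA, none had the lower, and 4 had no value above 0 in either group. The one gene past the fold lies 22233 bases before *Osi6* with a listed control value of 0 and 1.48 FPKM in OA, below every member. It is described here because it is the one such gene among the 20, and not by a rule. The added 1 FPKM keeps GM10862, 28727 bases before *Osi6*, under the fold. This gene was tested and went from 0.758 to 1.67 FPKM, a ratio of 2.21. GM10861 went from 0.719 to 1.37 FPKM. The nearest gene on this side at 1 FPKM or more in both groups lies 59323 bases from *Osi6* and went from 19.6 to 32.9 FPKM, a log2 change of 0.72. Farther out lie *Obp83cd*, *Obp83ef* and *Obp83g*, which encode odorant binding proteins, carriers of odorants in the fluid of sensory hairs. Their control and OA sums were 45.2 and 52.6 FPKM, and 0 of the 3 were past the fold.

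**Figure D3:**
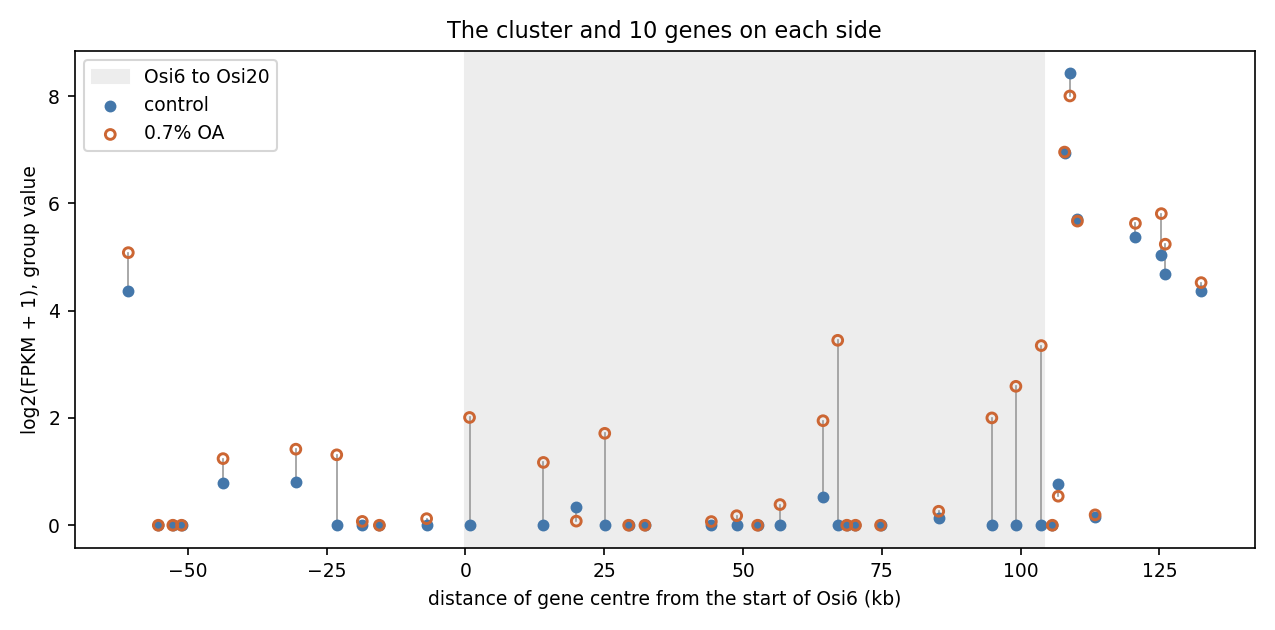
Group values in log2 of FPKM + 1 (filled blue, control; open orange, 0.7% OA; a grey line joins the 2 values of a gene) against the distance of each gene's centre from the start of *Osi6* in kb, for the 19 genes of the interval (shaded) and 10 genes on each side. Within the shading the control points sit at or near 0 while 8 OA points are raised, and to the right of it both points of most genes lie high and close together.

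Other genes had the pattern of the named *Osiris* genes. Of 2186 protein-coding genes between 2.28 and 9.91 FPKM in OA, the range of the 6 named genes, 65 or 2.97% were listed at 0 in control, the *Osiris* genes included. The other 59 lie mostly elsewhere, with 52 on other scaffolds and 7 on scaffold 6. In the reverse direction, 26 of 2135 genes in this range in control were listed at 0 in OA. Only 3 of the 59 carry a name in the file or in the study. *TwdlY* (GM13463, scaffold 17), a *Tweedle* gene encoding a cuticle protein, was listed at 0 and at 3.27 FPKM, a distance of 0.11 in log2 FPKM from the median member in OA. *Obp56a* (scaffold 1), an odorant binding protein gene, was listed at 0 and at 2.66 FPKM, a distance of 0.19. *CG15740* (GM13042, scaffold 36), without a known function, was listed at 0 and at 5.15 FPKM, a distance of 0.77. Likeness over 2 group values is a weak measure, since any gene at 0 in control and near this level in OA scores alike.

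The length of the genes is a property that the choice did not use directly. The 6 named *Osiris* genes span 909 to 1493 bases, with a median of 1227.5. The 59 other genes listed at 0 in control in the same OA range have a median span of 360 bases, and 12 of them span at least the 909 bases of *Osi20*. Both the OA range and the cut of 909 bases were taken from the 6 *Osiris* genes, so all 6 pass by construction. The shares at this cut are therefore a description and not a result about their length. Among the 65 genes, the *Osiris* genes made up 6 of 18 of at least this span. Longer transcripts gather more reads at the same FPKM, and reads decide whether a gene is tested. The span used here runs from the first to the last base of the gene, introns included, and is not transcript length. Among the 65 genes, GM18794 at 213 bases was the shortest tested, and every shorter gene was left untested. Most of those between 264 and 6338 bases were tested. The longest, GM23734 at 25279 bases and GM19517 at 136945 bases, were left untested. Of the 39 tested genes among the 65, 15 spanned at least 909 bases and 6 of these were the *Osiris* genes. Among all 1540 genes in the OA range with at least this span, 1.17% were listed at 0 in control.

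**Figure D4:**
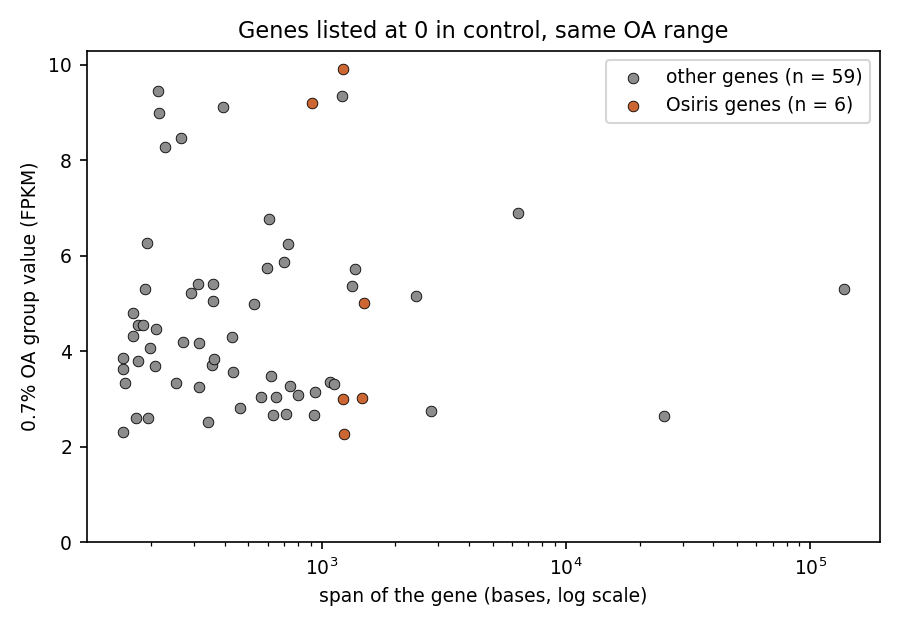
OA group value in FPKM against the span of the gene in bases (log scale) for the 65 protein-coding genes that were listed at 0 in control and lay between 2.28 and 9.91 FPKM in OA. The 6 *Osiris* genes (orange) lie between 909 and 1493 bases, and most of the 59 others (grey) are shorter.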

How the data were processed

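Poly(A) RNA of 3 control and 3 OA libraries was sequenced. By the study's methods and the submitters' processing notes, the authors checked reads with FastQC, aligned them with Bowtie2 to the Ensembl assembly GCA_000005215.1 and quantified genes of Ensembl release 34 in Cuffdiff, with libraries scaled by the geometric method and values corrected for transcript length and for sequence bias. The deposited FPKM values are 1 value per gene and group, which pools the 3 libraries. Depth per library is not in this table. The study lists the mapped reads of each library, and these were not used here. Bias-corrected values gave no whole reads, so no interval is given. The fold changes, test statistics, p-values and q-values of the authors' own comparison were not used. Only the note of which genes were tested was read.

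Entries whose names mark structural RNAs were set aside, leaving 16471 protein-coding entries, and log2 changes were taken with 1 FPKM added. Genes past the fold were then counted. Other pseudocounts, folds, scalings and filters were tried. Fits without each replicate were not possible from group values. Start positions in the file count from 0 and are printed counted from 1. The RefSeq gene table used here, of another assembly, matched 0 of the 19 cluster genes. Sequences were not used here.

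Genes to be named were the members, the other genes of the interval, the 3 nearest on each side, named genes with a like pattern and markers. Since the files pair few identifiers with names, most unnamed genes are given by position. The members, lists and measures were chosen with earlier results of these data known. Python 3.11.15, NumPy 2.4.6, pandas 2.3.3 and Matplotlib 3.10.9 were used.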

Additional observations from a re-analysis of the deposited data

How the results depend on the processing

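No paired analysis was possible because libraries of a group are pooled in the deposited values, which also kept single replicates from being left out. All 7 members stayed past the fold under both other pseudocounts, the lower fold, both scalings and the filter at 1 FPKM, and 5 did at a log2 change of at least 2. The members were picked on this contrast. The smaller pseudocounts, the lower fold and the filter could not have removed any of them. Neither could the scalings, since equal totals raised the members' OA sum and centring took 0.06 from log2 changes of at least 1.43. The members' count under all of these settings is therefore no support. The count of 8 genes in the interval became 5 at a log2 change of at least 2 and 1 among the 12 genes that are not members, a setting added after seeing the data. Of the genes beside the interval, 1 was past the fold as reported, 2 were with a pseudocount of 0.1 FPKM, 4 at a log2 change of at least 0.58, 0 at a log2 change of at least 2, 2 with 20 genes on each side, and 0 on the *Osi20* side alone, an added setting. Over all protein-coding genes the share past the fold went from 2.17% to 5.82% with a pseudocount of 0.1 FPKM and to 0.583% at a log2 change of at least 2. Genes of the interval listed at 0 in control numbered 7 at 1 FPKM or more in OA and 3 at 5 FPKM or more. With both groups set to the same protein-coding total, the members' OA sum went from 35.3 to 35.7 FPKM. The log2 change of GM10875 went from 1.43 to 2.47 with a pseudocount of 0.1 FPKM, to 2.72 with none, to 1.44 with equal totals and to 1.37 when centred on the median gene. FPKM without reads or spread limits every value below about 1 FPKM.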
